A study of Saccharomyces cerevisiae with 3 samples.

Results

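The open reading frames (ORFs) of the subtelomeric Y′ elements were examined in genomic DNA of Saccharomyces cerevisiae strains. The members were taken from a list of 39 systematic names, which holds the YRF1 helicase ORFs and the other ORFs annotated inside Y′ elements. Of these, 38 had a value in all 3 samples, out of 6123 ORFs measured in all 3. They lie at 16 of the 32 chromosome ends. The remaining name, YOR396W (YRF1-8) on the right arm of chromosome XV, was not analysed here. R2 IVo, an artificial hybrid made within the species, was set against parental strain Sc1 in one sample and against parental strain Sc2 in another, and the third sample set Sc1 against Sc2. The DNA of both strains of a pair was co-hybridised to duplicate arrays with exchanged dyes, and the authors combined those arrays into 1 log ratio per ORF. Per the labels, cells came from industrial cultivation and drying. Each strain is a single line, and nothing in the labels names separate cultures, so the p-values below measure array error only.

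Y′ elements are long repeats that lie directly inside the telomere repeats at some chromosome ends of S. cerevisiae, in a long and a short form, singly or in tandem. Which ends carry them, and how many copies, differs between strains, and copies are gained and lost by recombination between ends. Their largest ORF encodes the Y′ helicase, whose expression rises in cells that lose telomerase and keep their telomeres by recombination. Copies within a strain are nearly identical, so a spot named for one end can bind DNA from many ends, and fewer copies, sequence unlike the probe and loss of cross-hybridising copies cannot be told apart on this array.

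Ratios are in log2, and the strain named first is the numerator. The base 2 and the common direction are readings of the deposited table and are not stated in it; if the direction were the opposite, every sign below would turn. Sample values are as deposited, and estimates combine all 3 samples, centred on their medians, in 1 limma fit over the 6123 ORFs. A call is a Benjamini-Hochberg adjusted p under 0.05 over those ORFs. For 19 members the Sc1 over Sc2 cell had lost its decimal point and was divided by 1000. These are exactly the members at or below −1 in that sample: after division they ran from −1.34 to −1.01, with a median of −1.17. The hybrid samples, which hold no such cell among the members, give Sc1 over Sc2 for the same 19 ORFs by the path through the hybrid. Those values ran from −1.28 to −0.83, with a median of −1.09. The ranges of the restored cells and of the path through the hybrid overlap.

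Y′ sequence gave less signal in Sc1 than in Sc2 at most spots, and the median of the hybrid lay between its parents, nearer to Sc1. Between the parents, 29 of 38 members were called lower in Sc1, 0 were called higher and 9 were not called. Over all 6123 ORFs, 1.45% were called lower in this comparison and 0.523% higher. The members made up 32.6% of the 89 lower calls. Their median estimate was −0.96, a ratio of 0.513, against a median of 0.0020 over all ORFs tested. In the hybrid over Sc2, 28 were called lower and 0 higher, where 0.735% of all ORFs were called lower and 0.18% higher. These 28 were all among the 29, and they made up 62.2% of the 45 lower calls. The median estimate was −0.70, a ratio of 0.617. In the hybrid over Sc1, 3 members were called higher and 0 lower, where 0.327% of all ORFs were called higher and 0.343% lower, and 24 of the 38 members had an unadjusted p under 0.05, against 489 of all 6123 ORFs. The median estimate was 0.27. By size alone, with no test, 29 members had an estimate of −0.5 or lower in Sc1 over Sc2 (1.44% of all ORFs) and 29 in the hybrid over Sc2 (0.768%), and 2 had one of 0.5 or higher in the hybrid over Sc1 (0.327%). The comparisons share strains and samples, and the members share sequence, so these counts are not counts of separate events.

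**Figure D1:**
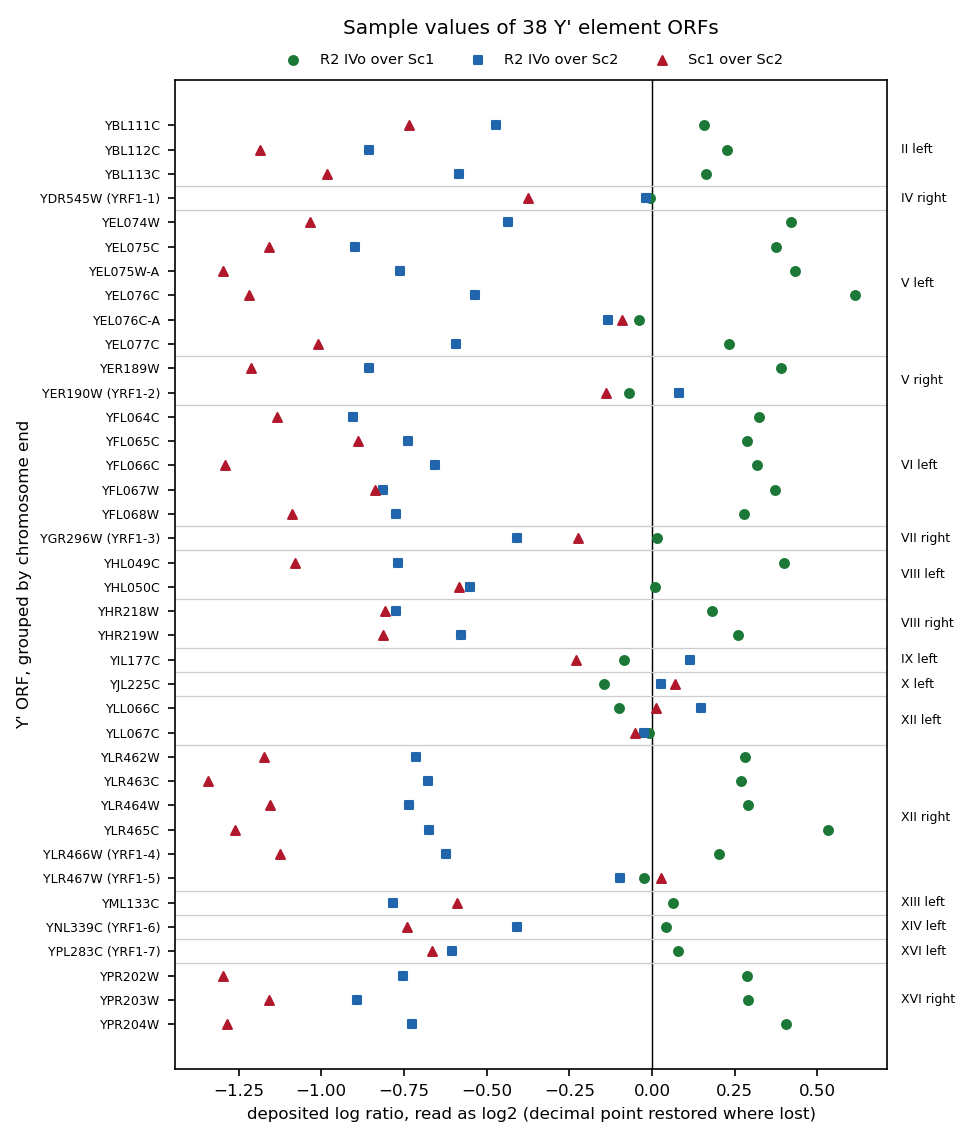
Deposited log ratios (horizontal axis, read as log2, with restored decimal points) of the 38 Y′ ORFs in each of the 3 samples, grouped by chromosome end (vertical axis). Most triangles (Sc1 over Sc2) sit between −1.34 and −0.58, squares (R2 IVo over Sc2) mostly lie to their right and circles (R2 IVo over Sc1) mostly above 0, while 9 ORFs have their Sc1 over Sc2 value between −0.37 and 0.069.

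The YRF1 ORFs encode the Y′ helicase itself. In this and the following paragraphs the 3 values after a name are sample values in the order R2 IVo over Sc1, R2 IVo over Sc2 and Sc1 over Sc2. YRF1-4 (YLR466W, right end of chromosome XII) had 0.20, −0.62 and −1.12. YRF1-7 (YPL283C, left end of XVI) had 0.077, −0.60 and −0.67. YRF1-6 (YNL339C, left end of XIV) had 0.043, −0.41 and −0.74. Of the YRF1 ORFs, these 3 were called lower in Sc1 than in Sc2. Their estimates were −1.04 ± 0.084, −0.68 ± 0.061 and −0.66 ± 0.082 (SE), with limma adjusted p-values of 0.00135, 0.00230 and 0.0117. In the hybrid over Sc2, YRF1-4 at −0.73 and YRF1-7 at −0.60 were called lower, while YRF1-6 at −0.51 was not (limma adjusted p = 0.0673).

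The other 4 measured YRF1 ORFs were not called in any comparison. YRF1-1 (YDR545W, right end of IV) had −0.0060, −0.017 and −0.37. YRF1-3 (YGR296W, right end of VII) had 0.016, −0.41 and −0.22. Both had negative Sc1 over Sc2 estimates, −0.27 ± 0.092 and −0.30 ± 0.071, that did not pass the test (limma adjusted p = 0.407 and 0.167). YRF1-2 (YER190W, right end of V) had −0.070, 0.083 and −0.14. YRF1-5 (YLR467W, right end of XII) had −0.025, −0.096 and 0.028. Their Sc1 over Sc2 estimates of −0.054 ± 0.083 and −0.017 ± 0.064 lay within 1 SE of 0. Thus 3 of 7 ORFs named YRF1 were called lower between the parents, against 26 of the 31 other Y′ ORFs. The median Sc1 over Sc2 estimate was −0.30 for the YRF1 ORFs and −1.09 for the others. This split is by gene name alone, and the others may also hold helicase sequence, which was not examined.

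The other Y′ ORFs are described by chromosome end, since those of 1 end come from the same element or tandem. At the left end of chromosome II, YBL111C had 0.16, −0.47 and −0.73. YBL112C had 0.23, −0.86 and −1.19. YBL113C had 0.16, −0.58 and −0.98. All 3 were called lower in Sc1 and in the hybrid than in Sc2, and YBL112C had the lowest hybrid over Sc2 estimate of all members, −0.90 ± 0.064 (limma adjusted p = 0.00310).

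The left end of chromosome V had the highest end median of hybrid over Sc1, 0.41. YEL076C had 0.61, −0.53 and −1.22. YEL075W-A had 0.43, −0.76 and −1.30. YEL074W had 0.42, −0.44 and −1.04. These 3 ORFs were high in the hybrid over Sc1 sample and low in both others. YEL076C, at an estimate of 0.64 ± 0.063 (limma adjusted p = 0.00979), and YEL075W-A, at 0.47 ± 0.064 (limma adjusted p = 0.0411), were called higher in the hybrid than in Sc1, whereas YEL074W at 0.49 ± 0.070 missed the threshold (limma adjusted p = 0.0524). YEL075W-A also had the lowest Sc1 over Sc2 estimate of all members, −1.28 ± 0.064 (limma adjusted p = 0.000219). YEL075C had 0.38, −0.90 and −1.16. YEL077C had 0.23, −0.59 and −1.01. All 5 of these ORFs were called lower than Sc2 in both Sc1 and the hybrid. The exception at this end was YEL076C-A, at −0.039, −0.13 and −0.090, which was called in no comparison.

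Right-arm neighbours on chromosome V also differed. YER189W had 0.39, −0.86 and −1.21 and was called lower than Sc2 in Sc1 and in the hybrid. Next to it, the helicase ORF YRF1-2 was near 0 in all samples, as given above.

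The left end of chromosome VI carried 5 members, all called lower than Sc2 in Sc1 and in the hybrid. YFL064C had 0.32, −0.91 and −1.13. YFL065C had 0.29, −0.74 and −0.89. YFL066C had 0.32, −0.66 and −1.29. The hybrid over Sc2 value of YFL064C was the lowest sample value of any member in that sample. YFL067W had 0.37, −0.81 and −0.84. YFL068W had 0.28, −0.77 and −1.09. Estimates at this end spanned 0.25 for Sc1 over Sc2, from −1.20 to −0.95.

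On chromosome VIII both ends had members. At the left end, YHL049C had 0.40, −0.77 and −1.08. Its neighbour YHL050C had 0.0080, −0.55 and −0.58. The hybrid over Sc1 value was thus near 0 at one and 0.40 at the other, and neither ORF was called in that comparison. At the right end, YHR218W had 0.18, −0.78 and −0.81. YHR219W had 0.26, −0.58 and −0.81. All 4 were called lower than Sc2 in both Sc1 and the hybrid.

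Chromosome XII carries Y′ members at both ends. At the right end, YLR462W had 0.28, −0.71 and −1.17. YLR463C had 0.27, −0.68 and −1.34, the lowest Sc1 over Sc2 sample value of any member. YLR464W had 0.29, −0.74 and −1.15. These ORFs and YLR465C, which had 0.53, −0.67 and −1.26, were called lower than Sc2 in Sc1 and in the hybrid, as was YRF1-4 beside them. YLR465C was in addition called higher in the hybrid than in Sc1, at an estimate of 0.56 ± 0.062 (limma adjusted p = 0.0179). At the left end, YLL066C had −0.10, 0.15 and 0.012. YLL067C had −0.0080, −0.025 and −0.053. Neither was called in any comparison, and YLL066C had the highest hybrid over Sc2 estimate of the members, 0.063 ± 0.076.

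The right end of chromosome XVI carried 3 members. YPR202W had 0.29, −0.75 and −1.30. YPR203W had 0.29, −0.89 and −1.16. YPR204W had 0.41, −0.73 and −1.29. All were called lower than Sc2 in Sc1 and in the hybrid, and their Sc1 over Sc2 estimates spanned 0.067, from −1.25 to −1.18, with SEs of 0.061 to 0.079. The spans were 0.17 for the hybrid over Sc1 and 0.11 for the hybrid over Sc2.

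Among the ends with 1 member that is not a YRF1 ORF, YML133C on the left arm of chromosome XIII had 0.064, −0.78 and −0.59. It was called lower than Sc2 in Sc1 (−0.69 ± 0.078) and in the hybrid (−0.70 ± 0.078). YIL177C on the left arm of IX had −0.086, 0.12 and −0.23. YJL225C on the left arm of X had −0.15, 0.028 and 0.069. Neither of the last 2 was called, and YJL225C had the highest Sc1 over Sc2 estimate (0.092 ± 0.065) and the lowest hybrid over Sc1 estimate (−0.10 ± 0.065) of all members.

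Taken by end, 11 of the 16 ends had at least 1 member called lower in Sc1 than in Sc2, and at 8 of them every measured member was. The 5 ends without a call were the right ends of IV and VII and the left ends of IX, X and XII. End medians of Sc1 over Sc2 ran from −1.22 at the right end of XVI to 0.092 at the left end of X. In the hybrid over Sc2, 10 ends had a lower call, the left end of XIV being the one that dropped out, and end medians ran from −0.84 (right end of XVI) to 0.011 (left end of XII). Of the 7 members that stand alone at their end on this array, 3 were called lower in Sc1, with a median estimate of −0.30. At the 9 ends with several members, 26 of the 31 were, with a median of −1.09. The lone members include YRF1-1, YRF1-3, YRF1-6 and YRF1-7. This split therefore overlaps the one by YRF1 name, and the 2 cannot be told apart here.

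**Figure D2:**
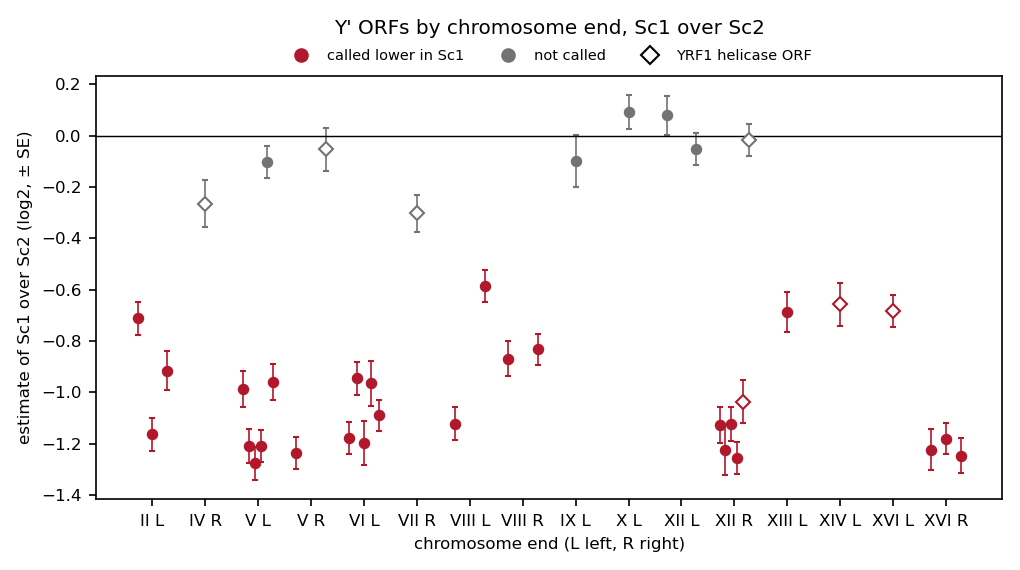
Sc1 over Sc2 estimates (vertical axis, log2, bars are ± 1 SE from the limma fit) of the 38 Y′ ORFs at their 16 chromosome ends (horizontal axis). Red points were called lower in Sc1 and grey points were not called, and open diamonds are the 7 YRF1 helicase ORFs. All called members lie at or below −0.59 and all others at or above −0.30.

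Members of the same end did not always move together. On the right arm of V, the Sc1 over Sc2 estimate of YER189W was below that of YER190W (YRF1-2) by a difference of −1.18 ± 0.10 (SE of the difference, from the SEs of both ORFs). At the right end of XII, YLR466W (YRF1-4) minus YLR467W (YRF1-5) was −1.02 ± 0.11. At the left end of V, YEL076C minus YEL076C-A was −1.10 ± 0.088. These differences within an end are many times their SE. The same pairs differed in the hybrid over Sc2, by −0.83, −0.66 and −0.43. In contrast, YLL066C and YLL067C at the left end of XII differed by 0.13 ± 0.098. The pairs were picked after their values were seen, so no test is given. The sources used here do not say which part of each ORF its array spot carries, and its role in these differences was not tested.

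Inward from the members the median ratios were close to 0, while single ORFs ranged widely. The next 5 measured ORFs at each of the 16 ends, 80 in all, had median estimates of −0.032 (hybrid over Sc1), −0.033 (hybrid over Sc2) and −0.023 (Sc1 over Sc2). Between the parents 5 of the 80 (6.25%) were called lower in Sc1 and 4 (5%) higher, against 1.45% and 0.523% of all ORFs. These 9 calls fell at 5 ends, with estimates over the 80 ORFs from −2.85 to 0.93, and 27 of the 80 had an unadjusted p under 0.05, against 586 of 6123. Of the 16 ORFs next to the members, 1 was called lower in Sc1, YBL109W on the left arm of II at −0.54, beside Y′ ORFs at −1.16 to −0.71. The opposite was seen on the left arm of V, where YEL073C at 0.85 and the meiosis gene RMD6 at 0.93 were called higher in Sc1 next to Y′ ORFs that were lower. On the left arm of VI, DDI3 at 0.45 and the vitamin B6 gene SNZ3 at 0.52 were also called higher in Sc1. They stand at places 3 and 5 inward from the lower Y′ ORFs, while YFL063W at place 1 was not called (−0.039). The remaining lower calls were YHR214C-B on the right arm of VIII at −1.24, and IMA4, an isomaltase gene, YJL220W and the hexose transporter gene HXT9 on the left arm of X at −0.72, −0.56 and −2.85. At that last end the only Y′ member, YJL225C, was not called. Genes of the same families at other ends had the same signs and were not called. These were IMA3 (left arm of IX) at −0.40, and DDI2 and SNZ2 (left arm of XIV) at 0.39 and 0.24. Whether the spots of such inner ORFs also bind related DNA from elsewhere was not tested, so a call need not belong to the end in its name.

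In the hybrid over Sc2, the calls among the 80 were YEL073C at 0.58, RMD6 at 0.80 and YHR214C-B at −0.75. That is 2.5% higher and 1.25% lower, against 0.18% and 0.735% of all ORFs. In the hybrid over Sc1 the calls were HXT9 at 2.68, IMA4 at 0.78, YJL220W at 0.52, YHR214C-B at 0.49 and DDI3 at −0.51. Here 5% of the 80 were called higher and 1.25% lower, against 0.327% and 0.343% of all ORFs. The median of the members was below that of the 5 inner ORFs at 15 of 16 ends in the hybrid over Sc2 and at 13 of 16 in Sc1 over Sc2. It was above it at 13 of 16 in the hybrid over Sc1. These counts are of signs alone. In the hybrid over Sc2, 10 ends had a lower call. Among the ends without one, the left end of X had medians of −0.012 against 0.026, and the right end of IV −0.14 against −0.10.

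**Figure D3:**
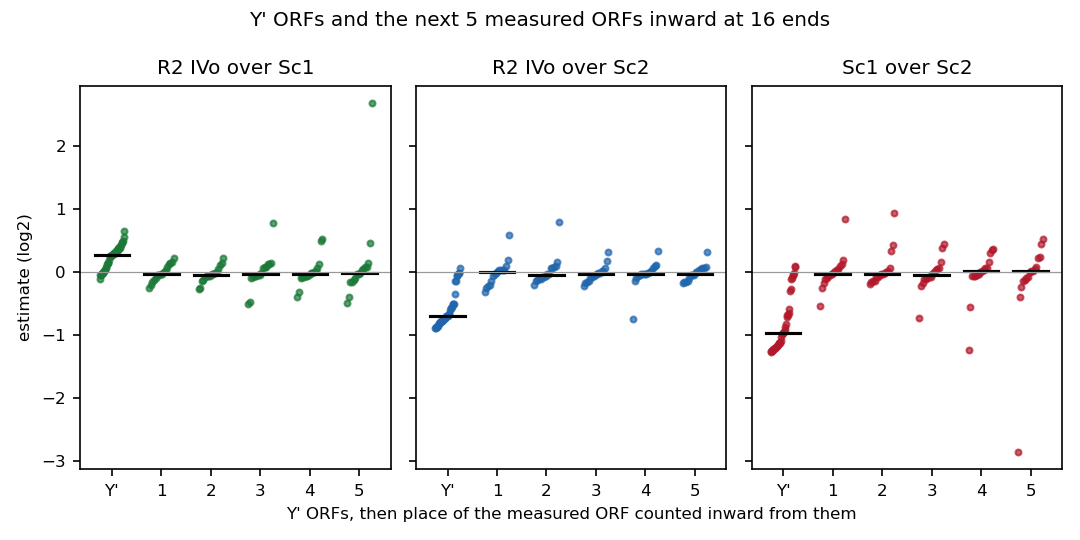
Estimates (vertical axis, log2) of the 38 Y′ ORFs and of the next 5 measured ORFs inward from them at 16 chromosome ends (horizontal axis), in the 3 comparisons. Black bars are medians: −0.96 for Y′ ORFs in Sc1 over Sc2 and −0.70 in R2 IVo over Sc2, and between −0.051 and 0.013 at every inner place in all 3 comparisons.

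The estimates of the hybrid mostly lay between those of its parents, but few members were called against both. Among the 29 members called between the parents, the estimates put 28 in the order Sc1, hybrid, Sc2 from low to high. Only 3 of the 29 were also called against Sc1, YEL076C, YEL075W-A and YLR465C, and 24 had an unadjusted p under 0.05 in that comparison. For the other 5 members, YML133C (−0.015 ± 0.078), YHL050C (0.024 ± 0.062), YRF1-7 (0.079 ± 0.061), YHR218W (0.14 ± 0.067) and YRF1-6 (0.15 ± 0.082), the hybrid over Sc1 estimate was not told apart from 0 even without adjustment. A position was computed from the hybrid samples alone for the 29 members whose Sc1 over Sc2 sample value was at least 0.5 in size, with 1 as the level of Sc1 and 0 as that of Sc2 on the log scale. Positions ran from 0.465 (YEL076C) to 0.975 (YHL050C), with a median of 0.714, and 28 of 29 lay above 0.5. YEL074W at 0.508 and YLR465C at 0.558 followed YEL076C at the low end. YRF1-4, YRF1-7 and YRF1-6 were at 0.752, 0.880 and 0.894.

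The mean of the parents on the ratio scale served as a further reference level. Where the parents differ, it lies above their midpoint on the log scale, so a hybrid at position 0.5 would also count as lower. With 28 of 29 positions above 0.5, the count below largely repeats the positions. For all 29 members called between the parents the hybrid over Sc2 estimate was lower than that mean, by a log2 difference of −0.43 to −0.082 and a median of −0.30. Reading the deposited values as natural logarithms enlarges all of them by the same factor and cannot bring a member above the mean. The count of 29 under that reading is therefore no separate check. The nearest to the mean were YEL076C (−0.082) and YEL074W (−0.089), and the furthest was YBL112C (−0.43). The SEs of their hybrid over Sc2 estimates were 0.063, 0.070 and 0.064. No SE of the difference from the mean was computed, so the count of 29 is one of signs. Signal on an array need not be proportional to copy number, and whether it is so for these spots was not tested.

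**Figure D4:**
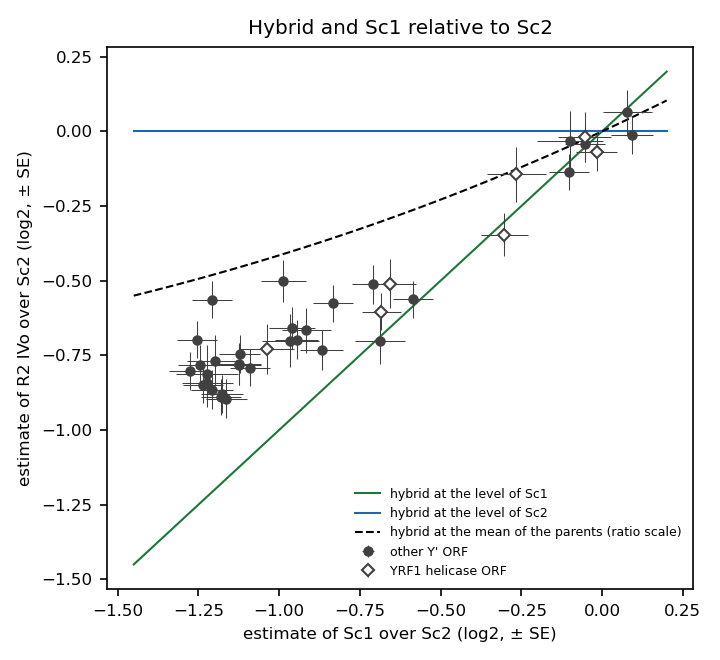
R2 IVo over Sc2 (vertical axis) against Sc1 over Sc2 (horizontal axis), both as log2 estimates with ± 1 SE from the same limma fit, for 38 Y′ ORFs. The lines mark a hybrid at the level of Sc1, at that of Sc2 and at the mean of the parents; the 29 members called between the parents lie below the dashed line of the mean, and most lie above the line of Sc1.

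Genes that act on telomeres and Y′ recombination, which are single-copy, are given for comparison. Of 23 genes of telomere maintenance and recombination, 22 were measured, among them the telomerase genes EST1 and EST2, the capping gene CDC13, the YKU genes of the Ku complex and RAD52, which acts in recombination. By limma 0 of the 22 were called in any comparison, with 1 in each at an unadjusted p under 0.05. Over all ORFs, 0.18% to 1.45% were called in 1 direction, so a count of 0 among 22 genes is near the background. Their median estimates were −0.015, −0.0043 and −0.0050 in the order used above. RIF1, a negative regulator of telomere length, was lowest in Sc1 over Sc2 at −0.35 ± 0.066 (limma adjusted p = 0.0723) and in the hybrid over Sc2 at −0.32 ± 0.066 (limma adjusted p = 0.164). With samples centred on their mode, RIF1 was called in Sc1 over Sc2 (limma adjusted p = 0.0281). YKU70 was highest in the hybrid over Sc1 (0.20) and in the hybrid over Sc2 (0.043). RIF2, whose product acts with that of RIF1, was lowest in the hybrid over Sc1 at −0.13 and highest in Sc1 over Sc2 at 0.10.

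The COS genes, a family of membrane proteins encoded just inside Y′ elements or telomeres, had a positive median in Sc1 over Sc2, where the Y′ median was negative. All 11 were measured, and their median estimates were −0.16, 0.030 and 0.19. In Sc1 over Sc2, 10 of 11 were positive and 1, COS12, was called higher at 0.59, with 6 at an unadjusted p under 0.05. Over all 6123 ORFs, 3119 were positive, 0.523% were called higher and 586 had an unadjusted p under 0.05. COS12 was called lower at −0.61 in the hybrid over Sc1, with 4 of the family at an unadjusted p under 0.05. Over all ORFs, 0.343% were called lower there and 489 of 6123 had an unadjusted p under 0.05. In the hybrid over Sc2 none was called by limma, with 0 at an unadjusted p under 0.05. The difference between the lists was not tested.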

How the data were processed

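Genomic DNA was cut with Hinf I, labelled with Cy3 or Cy5 and hybridised in pairs of strains, per the labels. The deposited values have no stated unit: each is a score read as a log2 ratio per ORF, combined by the authors over duplicate dye-swap arrays. The sources used here do not give the scanner, normalisation, averaging rule or genome build, so signal over background is unknown. The table held 6180 entries, of which 2 were controls, and 55 ORFs with a missing value were left out. Whole-number cells of at least 1000 in size (76 in all, 19 in members) were divided by 1000. Samples were centred on their medians (−0.0060, 0.0040 and 0.013). Strain differences were fitted with limma 3.58.1 in R 4.3.3 (lmFit, eBayes), with the 3 samples as sides of a triangle and 1 residual degree of freedom per ORF; the prior had 5.30 degrees of freedom. The number of arrays limits the precision. Tested on simulated data (50 draws, 200 of 6123 ORFs altered by 1 in log2), the fit recovered 99.8% for Sc1 over Sc2 and for the hybrid over Sc1, with 7.62% and 8.11% of calls false, above the nominal level; smaller changes were not simulated. Symbols came from RefSeq R64, which matched 34 of the 38 members, and chromosome and arm from the systematic names. Named are the YRF1 ORFs, every called member, extremes, and called ORFs of the other lists; 1 gene of the telomere list is not reported here. Members and lists were chosen with earlier results of these data known. Alternatives changed the centring, the moderation, the threshold, the log base and the use of restored cells.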

Additional observations from a re-analysis of the deposited data

How the results depend on the processing

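No paired analysis was possible because each pair of strains has 1 sample and the labels give no replicate numbers. The direction of the member medians and the absence of calls in the opposite direction held under every alternative run. Leaving out ORFs with restored decimal points removes every member at or below −1 in Sc1 over Sc2 and leaves 19. Of these, 0 were called by limma in the hybrid over Sc1 (5 at an unadjusted p under 0.05), 9 in the hybrid over Sc2 and 10 in Sc1 over Sc2, with medians of 0.065, −0.51 and −0.59. Over all 6067 ORFs of that fit, the calls were 1 higher, 11 lower and 41 lower in the same order. The main fit over all ORFs gave 20, 45 and 89. At an adjusted p under 0.01 the counts were 1 and 16 for the hybrid over Sc1 and over Sc2, against 3 and 28. Centring on the mode gave 7 calls in the hybrid over Sc1, and 1 telomere maintenance gene, RIF1, in Sc1 over Sc2. With that centring, higher calls over all ORFs in the hybrid over Sc1 rose from 20 to 32, and lower calls in Sc1 over Sc2 from 89 to 111. Reading the values as natural logarithms gave medians of 0.38, −1.01 and −1.39. Among single members, the calls of YEL074W, YFL067W and YLR463C in the hybrid over Sc2 and of YEL075W-A in the hybrid over Sc1 ended without centring and with the prior degrees of freedom set low (3.99). YRF1-6 was called in the hybrid over Sc2 when samples were centred on the mode. A call rule of 0.5 in size, added after the data were seen, gave 2, 29 and 29 members. Each pair of strains has a single sample, which limits every count.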
